A study of Mus musculus with 12 samples.

Results

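The genes described here mark cell types that a sort for gonadal somatic cells is meant to leave behind: 12 genes of blood vessel endothelium, 10 of red blood cells and 12 of leukocytes, mainly macrophages. They were followed as a measure of how pure the sorted cells were on each array and slide. A gene was found through the accession that the array gives for each probe, and the brightest of its probes stood for it. Of the 34 genes listed, 32 were measured, out of 18749 gene symbols on the array. No probe was matched to Hbb-b1 or Cd68. Of the 32, 28 passed the filter for testing, which asked that a probe be well above background on every array of at least 1 group. Ptprc, C1qa, Lyz2 and Cx3cr1 did not pass and are described without a test.

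The RNA came from embryos at embryonic day 11.5, 1 embryo per array, with 3 embryos of each sex and genotype. The controls were heterozygous and the mutants homozygous for a mutant allele of Jmjd1a, now named Kdm3a, which encodes a histone demethylase, so none of the 4 groups was wild type. All embryos carried a Nr5a1/CD271 transgene, in which regulatory sequence of Nr5a1, a gene of gonadal somatic cells, places the surface protein CD271 on those cells. Gonads and mesonephroi were dissociated together, CD271-bearing cells were drawn out with magnetic beads, and their RNA was linearly amplified and labelled with Cy3. The mesonephros, the embryonic kidney beside the gonad, is therefore a part of the starting tissue.

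Every level below is a log2 processed signal from which the array's own 75th percentile was subtracted, so a step of 1 is a doubling, and probes of different genes are not compared by level. Kdm3a stood between 2.70 and 3.03 on the 6 control arrays and between 0.43 and 1.04 on the 6 mutant arrays. The arrays lay on 3 slides of 4 arrays: all control males shared slide 1 with mutant male 1, all mutant females shared slide 3 with control female 3, and the remaining control females (1 and 2) and mutant males (2 and 3) made up slide 2. From 58.0% to 65.2% of the spots of an array were well above background. The labels name single embryos without their litters, so p-values measure the spread between single embryos only. Mutant female 2 stood apart and held the lowest level of 23 of the 32 genes, and the group medians of the 3 gene classes that use it are also given without it.

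At this stage vessels enter the gonad from the mesonephros, lined by endothelial cells that are held together by cadherins and claudins and that respond to VEGF and angiopoietin ligands. The circulation carries primitive red cells of yolk sac origin, which make embryonic zeta, epsilon-y and beta-h1 globins beside alpha globin. Macrophages of early origin are already settled in fetal organs and depend on signals through the receptor encoded by Csf1r.

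Promoters are shown for members whose levels rose and fell together over the arrays, with the letters that match motifs of well-known blood cell factors. The windows are the 250 bases before the transcription start from RefSeq on GRCm38.p6, 1 window per gene, and were matched for 23 of the 34 genes. Esam, Csf1r, Hbb-bh1, Tyrobp, Hbb-b1, Sox17, C1qa, Slc4a1, Cdh5, Plvap and Pecam1 were not matched. The GATA motif was searched as GATA preceded by A or T and followed by A or G, on both strands. It is the motif bound by GATA factors such as the product of Gata1. In the erythroid windows below, capitals mark its matches, and no match overlapped another. The windows lie at chr11:32276350-32276599, plus strand for Hba-x, chr11:32283422-32283671, plus strand for Hba-a1, chr7:103853208-103853457, minus strand for Hbb-y and chrX:150547167-150547416, plus strand for Alas2.
Hba-x: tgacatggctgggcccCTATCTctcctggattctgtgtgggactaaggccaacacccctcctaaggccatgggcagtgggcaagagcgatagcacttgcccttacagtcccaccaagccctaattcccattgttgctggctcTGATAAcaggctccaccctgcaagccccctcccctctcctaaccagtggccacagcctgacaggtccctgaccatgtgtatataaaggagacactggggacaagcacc
Hba-a1: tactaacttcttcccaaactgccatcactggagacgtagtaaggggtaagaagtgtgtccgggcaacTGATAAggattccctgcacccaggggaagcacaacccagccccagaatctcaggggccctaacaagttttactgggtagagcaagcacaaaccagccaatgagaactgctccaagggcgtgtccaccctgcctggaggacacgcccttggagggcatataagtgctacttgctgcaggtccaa
Hbb-y: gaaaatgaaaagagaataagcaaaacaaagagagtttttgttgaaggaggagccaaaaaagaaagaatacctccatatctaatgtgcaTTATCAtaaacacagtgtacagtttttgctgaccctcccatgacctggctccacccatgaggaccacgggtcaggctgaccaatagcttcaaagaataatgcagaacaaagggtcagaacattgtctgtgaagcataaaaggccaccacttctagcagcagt
Alas2: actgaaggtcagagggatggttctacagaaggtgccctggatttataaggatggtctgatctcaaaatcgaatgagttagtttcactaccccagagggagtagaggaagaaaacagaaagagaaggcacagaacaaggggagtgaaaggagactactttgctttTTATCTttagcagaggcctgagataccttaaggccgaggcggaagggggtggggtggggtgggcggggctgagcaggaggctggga

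Of 27025 windows in the table, 27.1% held at least 1 GATA match. The match was present in 6 of the 7 erythroid windows (those of Alas2, Epor, Hba-a1, Hba-x, Hbb-y and Klf1, not that of Gata1), in 1 of 7 endothelial windows (Egfl7) and in 3 of 9 leukocyte windows (Aif1, C1qb and Cx3cr1). The second motif, AGGAAGT on both strands, is of the kind bound by ETS factors, which include the macrophage factor PU.1 and several endothelial factors. It was present in 7.8% of all windows, in 5 of 9 leukocyte windows (C1qb, C1qc, Lyz2, Mrc1 and Ptprc), in 2 of 7 endothelial windows (Egfl7 and Flt1) and in 0 of 7 erythroid windows. The windows of C1qb (chr4:136886201-136886450, minus strand) and C1qc (chr4:136892915-136893164, minus strand), which encode chains of the complement protein C1q, are printed with that motif alone in capitals. These matches describe the letters in the windows, and binding was not measured. The listed position of C1qc reaches 136892936, so its window overlaps the gene as listed.
C1qb: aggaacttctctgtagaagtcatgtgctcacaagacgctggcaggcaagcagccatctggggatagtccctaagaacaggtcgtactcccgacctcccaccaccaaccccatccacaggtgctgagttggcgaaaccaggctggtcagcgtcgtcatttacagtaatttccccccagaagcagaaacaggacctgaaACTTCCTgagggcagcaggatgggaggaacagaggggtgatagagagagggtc
C1qc: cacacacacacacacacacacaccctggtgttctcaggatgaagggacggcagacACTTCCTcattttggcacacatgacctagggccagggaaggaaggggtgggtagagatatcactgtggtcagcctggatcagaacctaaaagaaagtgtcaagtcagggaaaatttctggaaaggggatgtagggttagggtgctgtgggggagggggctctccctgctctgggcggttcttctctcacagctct

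The globins and the genes of heme and membrane in red cells varied widely between embryos of the same group, and the erythroid class level had the widest range of the lists examined, 4.68. Hbb-bh1, the beta-h1 globin of primitive red cells, stood at 7.74, 4.21 and 3.31 in control females 1 to 3 and at 6.85, 1.68 and 6.81 in mutant females 1 to 3. The male controls 1 to 3 stood at 2.95, 5.70 and 3.92, the male mutants 1 to 3 at 2.65, 6.32 and 4.92. All 4 groups overlapped, and each held both a high and a low embryo. From mutant female 2 to control female 1 the range was 6.06, or 66.6-fold, while the 4 group means lay within 0.92 of each other. A second Hbb-bh1 probe gave the same picture: the difference between both probes varied by 0.32 over the 12 arrays.

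**Figure D1:**
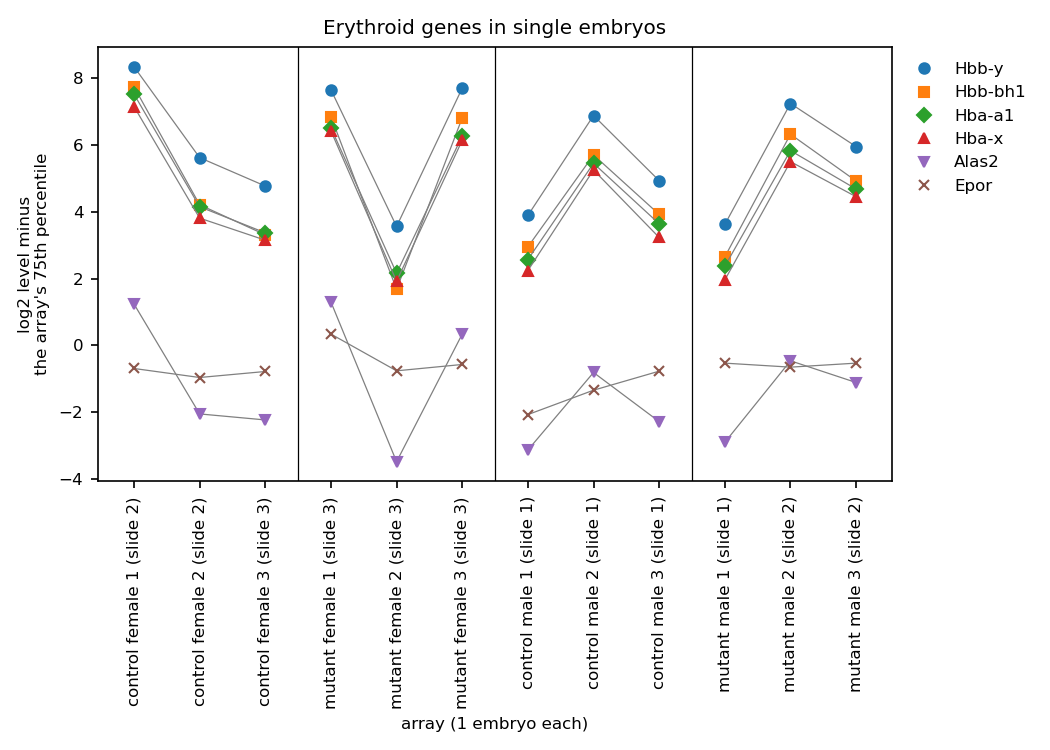
Log2 level relative to the array's 75th percentile (vertical axis) of 6 erythroid genes on the 12 arrays (horizontal axis, 1 embryo each, grouped by sex and genotype, slide in brackets); grey lines join the embryos of a group for legibility. The signals of the 4 globins and Alas2 rose and fell together over ranges of 4.78 to 6.06 (Hbb-y saturated on 2 arrays), whereas Epor ranged over 2.41.

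The other globins followed Hbb-bh1 array by array. Hba-x, the zeta globin, ranged over 5.24 (37.7-fold), Hba-a1, an alpha globin, over 5.36 (41.0-fold) and Hbb-y, the epsilon-y globin, over at least 4.78 (at least 27.5-fold). The Hbb-y probe was saturated in control female 1 and mutant female 1, where its signal is a lower bound, and the reading of Hba-a1 is uncertain because a near-identical copy, Hba-a2, can share its probe. Although Hba-a1 moved by 5.36 over the arrays, its difference from Hba-x varied by 0.32 and its difference from Hbb-bh1 by 1.03. Over the 10 arrays on which Hbb-y was not saturated, Hba-a1 moved by 4.11 and its difference from Hbb-y varied by 0.22.

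Alas2, which encodes the first enzyme of heme synthesis in red cells, stood at 1.24, -2.05 and -2.23 in control females 1 to 3 and at 1.30, -3.48 and 0.34 in mutant females. The male controls stood at -3.13, -0.81 and -2.28, the male mutants at -2.90, -0.46 and -1.11. The high and low embryos were those of the globins, and its correlation with the median of the other 8 erythroid genes over the 12 arrays was 0.99. Slc4a1, the band 3 anion exchanger of the red cell membrane, ranged over 5.39 (41.8-fold), from -3.85 in control male 1 to 1.54 in mutant female 1, with a correlation of 0.86 to the rest.

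Of the regulators of red cell development, Epor varied less than the globins, while the ranges of Klf1 and Gata1 could only be bounded from below. Epor, the erythropoietin receptor, stood at -0.69, -0.96 and -0.78 in control females, 0.34, -0.76 and -0.57 in mutant females, -2.07, -1.34 and -0.77 in male controls and -0.53, -0.65 and -0.53 in male mutants. Control males 1 and 2 were the low embryos and mutant female 1 the high one, an order unlike that of the globins. Klf1, a transcription factor that activates adult globin genes, was well above background on 9 arrays and ranged over at least 1.69 (at least 3.22-fold), with its highest level, -3.34, in mutant female 1. Gata1, a transcription factor that red cells require, was well above background on 5 of 6 female arrays and on none of the 6 male arrays. The correlations with the rest of the erythroid genes were 0.46 for Epor, 0.50 for Klf1 and 0.41 for Gata1, and for Gata1 and Klf1 some of the 12 points are background signal.

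**Figure D2:**
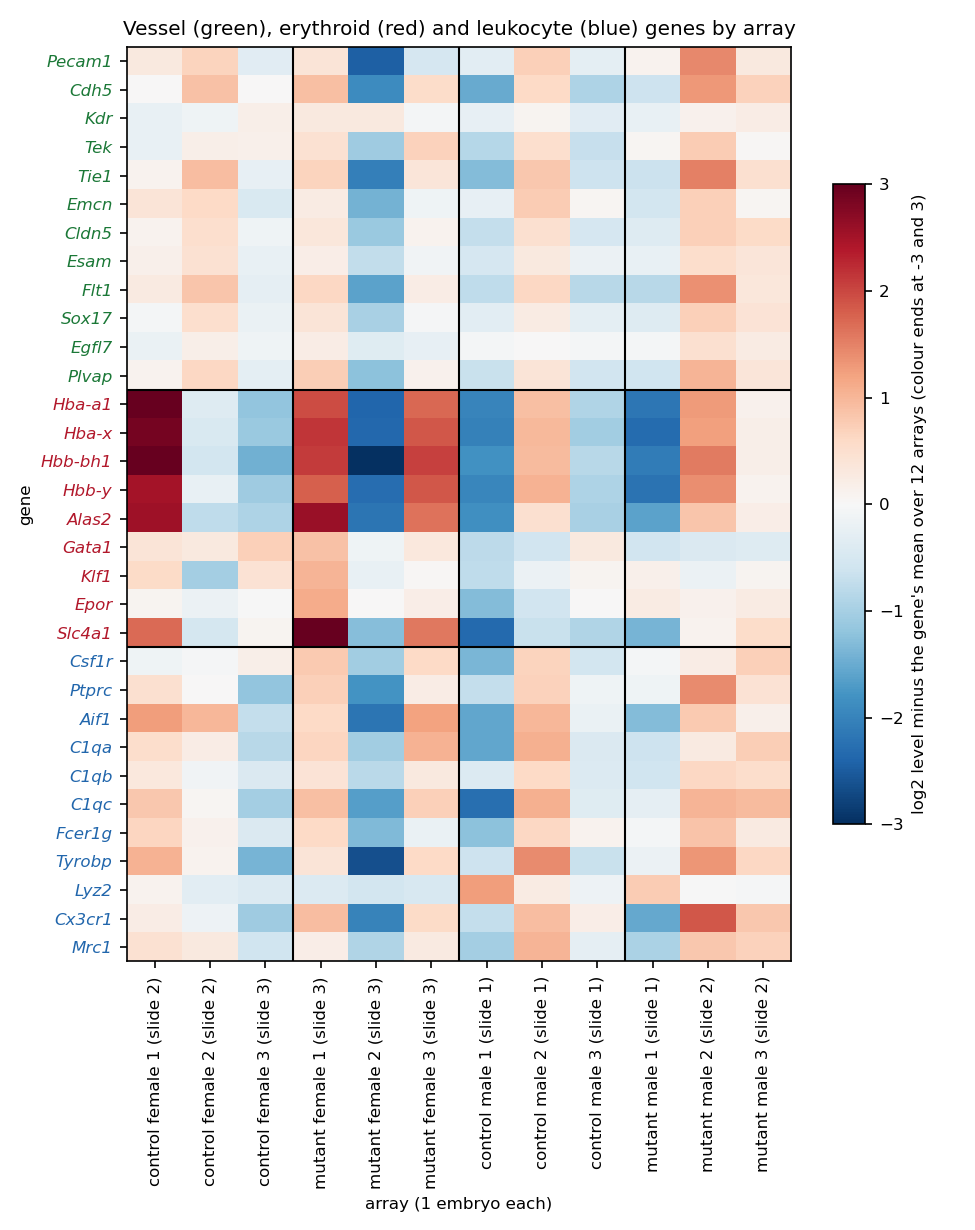
Log2 level of each of the 32 measured genes (rows) minus its own mean over the 12 arrays, on each array (columns, 1 embryo each, slide in brackets); red is above and blue below the gene's mean, and colours end at -3 and 3. Mutant female 2 is blue for nearly all genes, and control female 1 and mutant females 1 and 3 are darkest red for the globins and Alas2.

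Endothelial genes moved together as well, over a smaller range and in another order of embryos. Cdh5, the cadherin of endothelial junctions, stood at -1.68, -0.80 and -1.68 in control females 1 to 3 and at -0.79, -3.57 and -1.14 in mutant females. The male controls stood at -3.21, -1.10 and -2.61, the male mutants at -2.30, -0.40 and -1.0. Mutant female 2 and control male 1 were lowest and mutant male 2 highest, a range of 3.17 (8.99-fold), and all groups overlapped. Pecam1, an adhesion molecule of endothelium, ranged over at least 2.80 (at least 6.95-fold). It was not well above background in mutant female 2 and control male 1, and was highest in mutant male 2 at -2.47.

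Of the receptors, Tie1, an orphan receptor of the angiopoietin system, was at least 7.5-fold higher in its highest than in its lowest embryo, with 10 of 12 arrays well above background. For Tek, the angiopoietin receptor, this was at least 2.84-fold, with 8 of 12 arrays. Flt1, a VEGF receptor that holds back signalling, ranged over 2.99 (7.93-fold). Kdr, the main signalling receptor for VEGF, did not follow them. It stood at 1.0, 1.11 and 1.41 in control females, 1.53, 1.53 and 1.18 in mutant females, 0.99, 1.31 and 0.90 in male controls and 1.01, 1.37 and 1.45 in male mutants. Its range was 0.63 (1.55-fold), mutant female 2 shared its highest value, and its correlation with the median of the other 11 endothelial genes was 0.15, against 0.75 to 0.98 for those 11.

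The junction, surface and secreted members fell between these. Plvap, a protein of endothelial diaphragms, ranged over 2.24, Emcn, an endothelial sialomucin, over 2.19, and Cldn5, the tight junction claudin, over 1.83. Sox17, a transcription factor of arterial endothelium, ranged over at least 1.70, with control male 1 not well above background, and Esam, a junction adhesion molecule, over 1.27. Egfl7, a secreted matrix protein of vessels, moved least after Kdr, over 0.86 (1.81-fold), between 2.42 in mutant female 2 and 3.27 in mutant male 2. The lowest signal lay in mutant female 2 for 11 of the 12 endothelial genes (Kdr was the exception, lowest in control male 3), and the highest lay in mutant male 2 for 10.

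Leukocyte genes were dim, and their embryos ranked much as for endothelium. Tyrobp, an adaptor of activating receptors on macrophages, stood at -0.52, -1.45 and -2.96 in control females 1 to 3 and at -1.16, -4.19 and -0.96 in mutant females. The male controls stood at -2.17, -0.13 and -2.22, the male mutants at -1.74, -0.24 and -0.94. Control male 2 and mutant male 2 were highest and mutant female 2 lowest, a range of 4.06 (16.7-fold), with all groups overlapping. C1qc stood at -1.72, -2.47 and -3.55 in control females, -1.64, -4.18 and -1.83 in mutant females, -4.79, -1.47 and -2.91 in male controls and -2.80, -1.51 and -1.60 in male mutants. For this chain of C1q, control male 1 was not well above background, mutant female 2 was low too, and control male 2 was highest, at least 7.17-fold above the lowest.

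Of the remaining leukocyte genes, Fcer1g, the signalling chain of Fc receptors, ranged over 2.18 and C1qb over 1.44, both well above background on all 12 arrays. Aif1, a calcium-binding protein of macrophages, ranged over at least 3.43, Csf1r over at least 1.83 and Mrc1, the mannose receptor, over at least 1.91, with control male 1 not well above background for any of the 3. C1qa was well above background on 7 arrays, Cx3cr1, the fractalkine receptor, on 3, and Ptprc, the pan-leukocyte CD45, on 2. Lyz2, lysozyme of myeloid cells, was well above background on 0 of the 12 arrays. Apart from Lyz2, at -0.17, the correlations with the rest of the class ran from 0.79 for Csf1r to 0.96 for C1qc.

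A class level was taken for each array as the median, over the genes of a class, of the level minus the gene's own mean over the 12 arrays. The erythroid level was highest in control female 1 at 2.49, mutant female 1 at 1.97 and mutant female 3 at 1.64, and lowest in mutant female 2 at -2.19, control male 1 at -1.83 and mutant male 1 at -1.61. The endothelial level ran from -1.17 in mutant female 2 and -0.59 in control male 1 to 0.55 in control female 2 and 0.74 in mutant male 2. The leukocyte level ran from -1.32 in mutant female 2 and -1.02 in control male 1 to 0.82 in mutant male 2 and 0.93 in control male 2. In these levels mutant female 2 was lowest and control male 1 next lowest in all 3 classes. Other settings kept mutant female 2 lowest, except for leukocyte genes after quantile normalization (control male 1 at -1.31, mutant female 2 at -1.25), but the next lowest embryo varied. With normexp background correction the next lowest was mutant male 1 in erythroid genes at -0.88 and control female 3 in leukocyte genes at -0.32, and with only the genes well above background on all 12 arrays it was mutant male 1 in erythroid genes at -2.11. The highest embryo also depended on the setting: it was mutant female 1 in erythroid genes with normexp at 1.98, and mutant male 2 in leukocyte genes with only the genes well above background on all arrays at 0.86. Normexp narrowed the span of the class levels to 3.27 for erythroid (from 4.68), 1.12 for endothelial (from 1.91) and 0.81 for leukocyte genes (from 2.25), so that the leukocyte span was the smallest there. Control female 1, the highest in red cell genes, was near the middle in endothelial genes at 0.10.

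**Figure D3:**
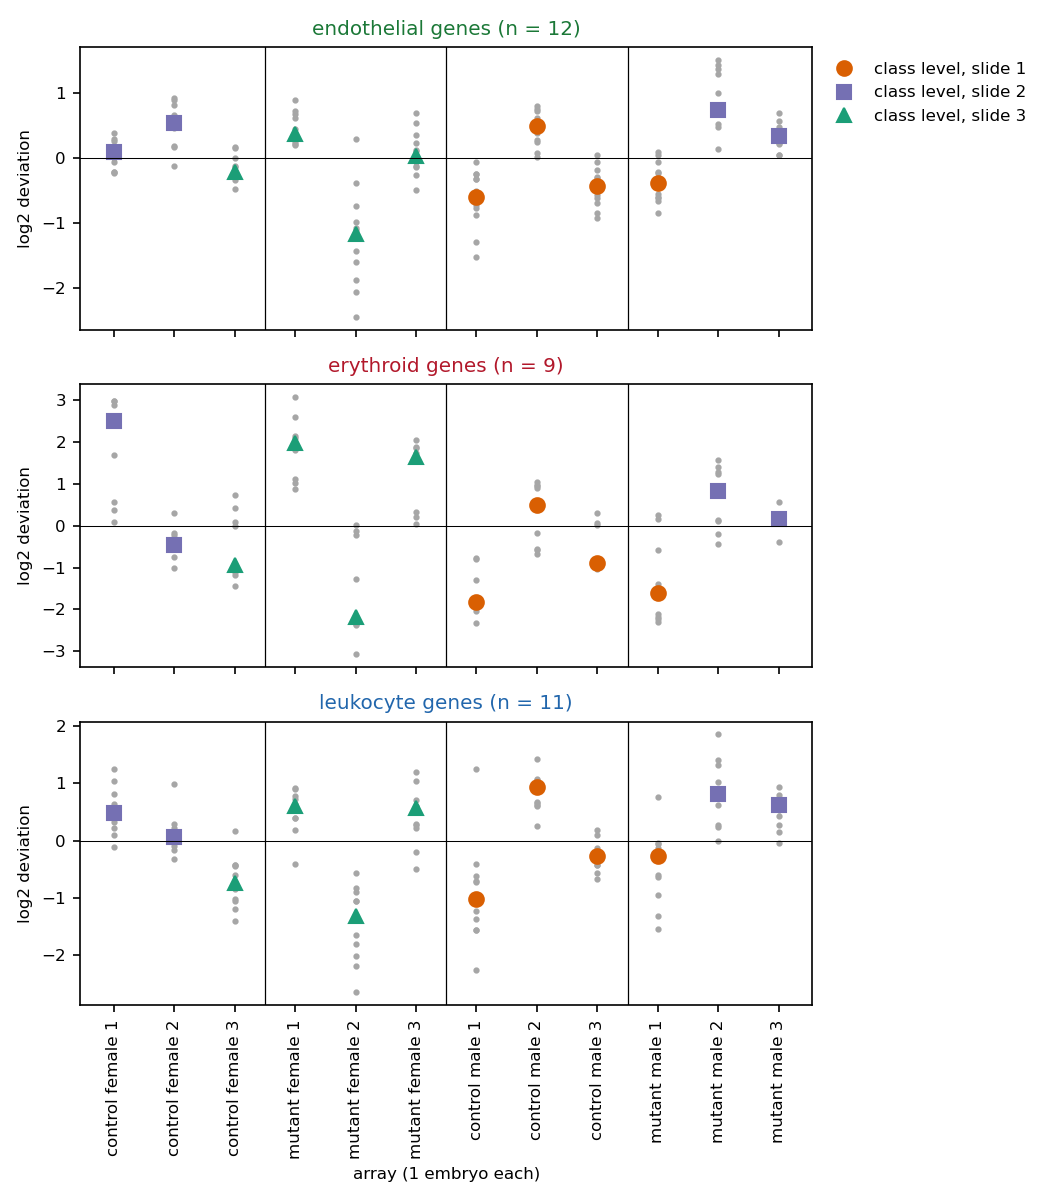
Log2 deviation of each gene from its own mean over the 12 arrays (grey points) and the class level, their median (coloured by slide), for 12 endothelial, 9 erythroid and 11 leukocyte genes on each array. The erythroid level spans 4.68, the leukocyte level 2.25 and the endothelial level 1.91, and each slide holds arrays above and below 0 in the erythroid panel.

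Summed on a linear scale, where bright probes weigh most, the erythroid genes spanned at least 35.9-fold, Hbb-y being saturated in the highest embryo (24.1 to 866.8 in units of the array's 75th percentile), the leukocyte genes 5.46-fold (0.626 to 3.42) and the endothelial genes 2.27-fold (11.03 to 25.07). A list of 10 gonadal somatic genes, the sorted population, spanned 1.65-fold. Its level was highest in mutant female 2 at 0.53 and control female 3 at 0.36, and lay between -0.23 and 0.17 on the other 10 arrays. Ngfr, the gene for CD271, ranged over 0.68 and stood at 7.14 in mutant female 2, but the sources used here do not say whether its probe reads the transgene. In bulk RNA, fewer cells of a type and less RNA of that type per cell cannot be told apart.

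Over the 12 arrays the endothelial and leukocyte levels had a Pearson correlation of 0.89 (Spearman 0.84), the erythroid and leukocyte levels 0.83 (0.77), and the endothelial and erythroid levels 0.69 (0.69). Without the 2 arrays farthest from the median of the first class named, the Pearson values were 0.81, 0.89 and 0.59 over 10 arrays. The gonadal somatic level ran against all 3, at -0.61 with endothelium, -0.57 with leukocytes and -0.47 with erythroid genes. For endothelium this value was -0.25 without the 2 farthest arrays. All levels of an array share its RNA, its hybridisation and its scaling, so these values only describe the arrays. Single pairs of genes had a median correlation of 0.86 within endothelium (66 pairs), 0.82 within leukocytes (55 pairs) and 0.70 within the erythroid genes (36 pairs). Between classes it was 0.79 for endothelial and leukocyte genes (132 pairs), 0.68 for erythroid and leukocyte genes (99 pairs) and 0.53 for endothelial and erythroid genes (108 pairs).

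**Figure D4:**
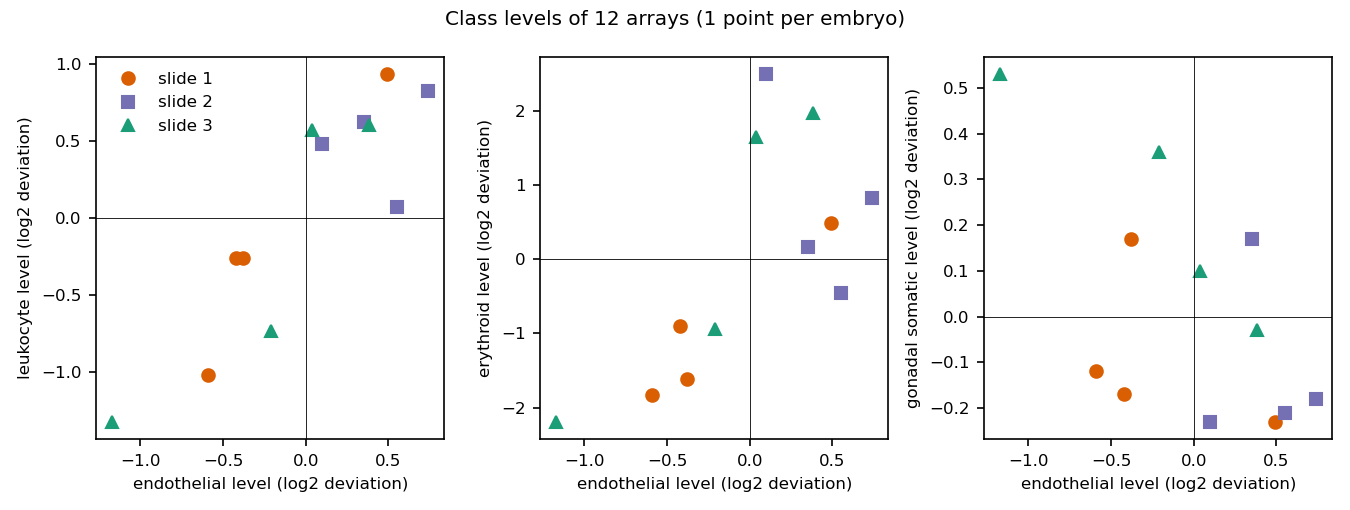
Class level of the leukocyte, erythroid and gonadal somatic genes (vertical axes, log2 deviation) against the endothelial level (horizontal axes) on the 12 arrays, 1 point per embryo, coloured by slide. Mutant female 2 is the point at the far left, lowest for leukocyte and erythroid genes and highest, at 0.53, for the gonadal somatic genes.

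Against all tested features, the spread of these genes between embryos of a group was large. The within-group SD lay above the 95th percentile of all tested features for 8 of 12 endothelial, 7 of 9 erythroid and 7 of 7 leukocyte genes among the 28 tested. It lay at the 43.6th percentile for Kdr and the 50th for Egfl7. Among the genes counted, Tek, Klf1, Pecam1, Tie1, Mrc1, Csf1r, Aif1 and C1qc were not well above background on every array. Their SDs include background signal. For all 32 genes, background signals included, the widest range within a group exceeded the range of the 4 group means. Single embryos range more widely than group means for most genes, and the share over all features was not taken. This count therefore does not set the members apart.

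The first comparison asked whether vessel, blood or macrophage genes differed between mutant and control embryos. In males, the mutants were higher on average for 11 of 12 endothelial, 8 of 9 erythroid and 10 of 11 leukocyte genes, with median differences of 0.55, 0.41 and 0.44, beside -0.05 over all features tested. Here and in the comparisons below, counts and medians over 11 leukocyte genes include the untested Ptprc, C1qa, Lyz2 and Cx3cr1. Many of their signals are background, so the signs of their differences carry little weight. By the test across all features, 0 of 28 tested members passed limma's test at an adjusted p of 0.05, where 0.469% of all features did. At an unadjusted p below 0.05 there were 2275 of 19178 features and 1 member. That gene was Epor, at -1.39 ± 0.649 (SD, n = 3) in control males and -0.57 ± 0.0695 in mutant males, a difference of 0.82 ± 0.32 (SE; limma adjusted p = 0.38). Its groups did not overlap, as was so for 1 of the 32 measured members and for 20.3% of the 19178 tested features in this comparison. Cdh5 differed by 1.07 ± 0.76 (SE; limma adjusted p = 0.493) and C1qc by 1.09 ± 0.87 (limma adjusted p = 0.522), the largest endothelial and leukocyte differences; C1qc was not well above background in control male 1.

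Markers of mesonephric epithelium and megakaryocytes were also higher on average in mutant males. Of 10 mesonephric epithelium genes 9 were higher in mutants, with a median of 0.55, 5 with groups that did not overlap and 0 passing the test (smallest limma adjusted p = 0.0707, for the cadherin gene Cdh1), and the summed level ran from 39.1 to 47.08 in control males and from 46.77 to 57.29 in mutant males. Of 10 megakaryocyte genes 10 were higher, with a median of 0.97, 0 passing the test, and a summed level of 5.862 to 21.96 in control males against 14.47 to 26.32 in mutant males. Over all features, 20.3% had groups that did not overlap and 0.469% passed the test. Other lists had smaller medians: 0.18 for gonadal somatic genes (8 of 10 higher) and 0.12 for germ cell genes (5 of 8). The median was 0.19 for neural genes (3 of 6 higher) and 0.04 for mural genes (4 of 7). The part of these lists in the members' medians was not tested.

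On slide 1 alone, where mutant male 1 can be set against the 3 control males, the medians were -0.10 for endothelial, -0.83 for erythroid and -0.23 for leukocyte genes. Mutant males 2 and 3, on slide 2, carried the higher levels. Without control male 1 or mutant male 2 the erythroid median in males fell below 0, to as low as -0.18.

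In females the pattern of signs was another one. Mutants were lower on average for 11 of 12 endothelial genes, Kdr being the exception, with a median of -0.36, while 7 of 9 erythroid genes were higher with a median of 0.12. Leukocyte genes were split, 5 higher and 6 lower, with a median of -0.06, beside -0.05 over all features. Again 0 of 28 passed limma's test, where 0.355% of all features did. At an unadjusted p below 0.05 there were 0 members and 1989 of 19178 features. The groups overlapped for all 32 measured members, while they did not for 12.7% of the tested features. Pecam1, not well above background in mutant female 2, came closest, at -3.70 ± 0.505 (SD, n = 3) in controls and -4.76 ± 1.44 in mutants, a difference of -1.07 ± 0.63 (SE; limma adjusted p = 0.491).

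The signs of those female medians depended on single embryos. Without mutant female 2 the endothelial median was 0.12, the erythroid 1.43 and the leukocyte 0.58. Without control female 1 the erythroid median was 1.22, and without mutant female 1 it was -0.56; it was also below 0 without control female 2, control female 3 or mutant female 3. The leukocyte median also changed sign without control female 1 or control female 2. On slide 3 alone, with the 3 mutant females against control female 3, the medians were -0.01, 1.53 and 0.60.

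**Figure D5:**
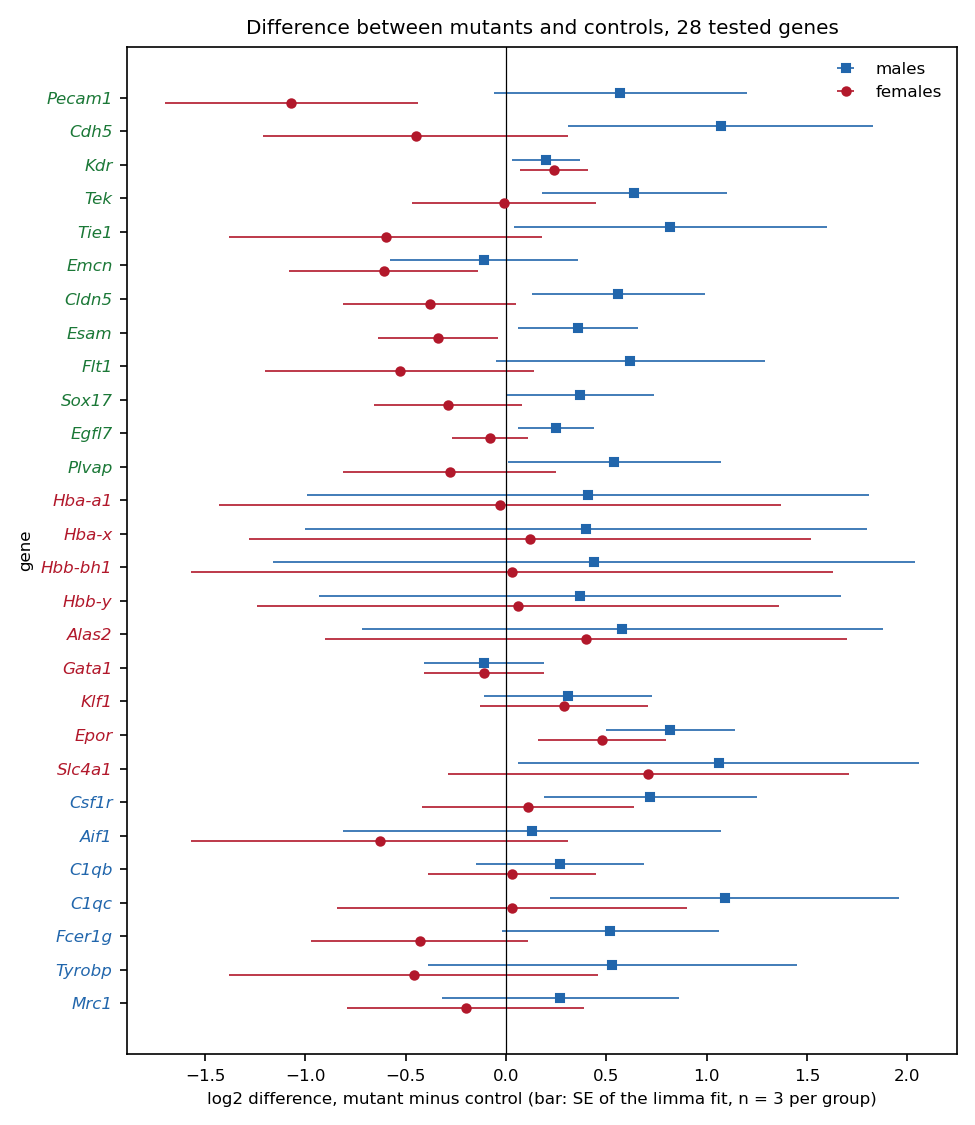
Log2 difference between mutants and controls (horizontal axis; squares males, circles females; bars are the SE of the limma fit, n = 3 embryos per group) for the 28 tested genes, coloured by class. The bars of the globins reach 1.3 to 1.6 to each side, and no gene passed the test in either sex.

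The difference between both mutant effects was also tested. It was positive, that is more positive in males, for 11 of 12 endothelial, 8 of 9 erythroid and 11 of 11 leukocyte genes. The medians were 0.76, 0.31 and 0.62, beside 0.01 over all features, and 0 of 28 members passed limma's test, as did 0% of all 19178 features, with 0 members and 701 features at an unadjusted p below 0.05. With slide as a fixed block the medians were -0.08, -2.45 and -0.97. Without mutant female 2 they were 0.36, -0.97 and -0.05.

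The second comparison was between the sexes. No slide held both sexes of a genotype, so sex and slide cannot be told apart within a genotype. All 9 erythroid genes were lower in males than in females in both genotypes, with a median of -1.01 in controls and -0.70 in mutants, beside 0.04 and 0.05 over all features. In controls 0 of 28 members passed limma's test (0.177% of all features did) and in mutants 0 of 28 (0.13%). At an unadjusted p below 0.05 there were 1 member (Gata1) and 2 members (Gata1 and Pecam1), beside 2069 and 2207 of 19178 features. Gata1 was background signal on every male array, and Pecam1 was not well above background in mutant female 2. Their p-values therefore set signal partly against background. With slide as a fixed block the erythroid median was 0.46 in controls and -1.92 in mutants, and with slide as a random block -0.33 and -1.46.

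Gata1 stood at -4.62, -4.70 and -4.28 in control females 1 to 3, -4.13, -5.14 and -4.68 in mutant females, -5.80, -5.58 and -4.70 in male controls and -5.58, -5.44 and -5.40 in male mutants. None of the 6 male values was well above background, so they are bounds and not levels, and the gene passed the filter only through the mutant females. These were at least 1.11-fold higher than the mutant males, and no fold could be bounded in controls. The globins differed by -1.13 to -0.90 in controls and by -0.85 to -0.48 in mutants, each with a SE of 1.3 to 1.6.

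Slc4a1 was the erythroid gene with the largest sex difference. It stood at 0.16, -2.05 and -1.45 in control females, -3.85, -2.20 and -2.43 in control males, 1.54, -2.81 and 0.06 in mutant females and -2.92, -1.42 and -0.97 in mutant males. The control groups did not overlap, which was so for 1 of 9 erythroid genes and 15.9% of all features, while the mutant groups did. The difference was -1.71 ± 1.0 (SE; limma adjusted p = 0.505) in controls.

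Among mutants, groups that did not overlap were found for 2 of the 32 measured members: Gata1, and Lyz2, which was untested and at background. The share was 22.8% of the 19178 tested features. Among controls, 10 of 12 endothelial genes were lower in males, with a median of -0.32, and among mutants 11 of 12 were higher in males, with a median of 0.49. The leukocyte medians were -0.14 and 0.54. Without mutant female 2 the medians in mutants were -0.02 for endothelial, -0.16 for leukocyte and -2.10 for erythroid genes. With slide as a fixed block the endothelial median was 0.50 in controls and 0.37 in mutants, and the leukocyte median 0.44 and -0.07. As for the erythroid genes, these fixed-block values hinge on few embryos and do not separate sex from slide. The erythroid median was 0.04 in controls without control female 1 and 0.08 in mutants without mutant female 1.

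The third comparison was between slides, within groups that lay on 2 slides. Mutant males 2 and 3, on slide 2, were higher than mutant male 1, on slide 1, for 12 of 12 endothelial, 7 of 9 erythroid and 10 of 11 leukocyte genes, with medians of 0.95, 2.12 and 1.15. Control female 3, on slide 3, was lower than control females 1 and 2, on slide 2, for 10 of 12, 6 of 9 and 10 of 11, with medians of -0.49, -1.83 and -1.09. Each rests on 1 array against 2, so slide and embryo cannot be told apart. With slide as a term in limma, 0 of 28 members passed for slide 2 against slide 1 (0.0365% of all features did; smallest member adjusted p = 0.929) and 0 of 28 for slide 3 against slide 2 (0.0104%; 0.301). At an unadjusted p below 0.05 there were 1 and 0 members, beside 1023 of 19175 and 4952 of 19157 features.

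Within each slide the 4 arrays spread widely. The erythroid level ran from -1.83 to 0.49 on slide 1, -0.46 to 2.49 on slide 2 and -2.19 to 1.97 on slide 3. The endothelial level ran from -0.59 to 0.49, 0.10 to 0.74 and -1.17 to 0.38, and the leukocyte level from -1.02 to 0.93, 0.07 to 0.82 and -1.32 to 0.60. All slide 2 arrays were above 0 in endothelial and leukocyte genes, and slides 1 and 3 held arrays on both sides.

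Further genes of the same cell types, from lists of textbook markers, gave the same counts of calls. In neither sex did a mutant effect pass limma's test for any of 20 tested vessel genes, 10 erythroid genes or 13 leukocyte genes outside the members. Over all features, 0.469% passed in males and 0.355% in females, so a count of 0 in lists this short says little about these genes. Over all 24, 19 and 24 measured genes of the vessel, erythroid and leukocyte lists, tested or not, the medians were 0.28, 0.18 and 0.36 in males. In females they were -0.33, 0.09 and -0.35. The untested genes did not pass the filter on dim probes, so the signs of their differences carry little weight. Without mutant female 2 the female medians were 0.03, 0.61 and 0.06. The ligands that the members' receptors bind did not pass either: 0 of 5 vessel ligands, with medians of 0.23 in males and 0.06 in females (0.13 without mutant female 2), and 0 of 3 leukocyte ligands, with 0.27 and 0.45 (0.51). The ligands had another order of embryos: the summed vessel ligands spanned 1.72-fold and were lowest in control female 1, and the summed leukocyte ligands spanned 3.23-fold and were highest in mutant female 2, where the leukocyte members were lowest.

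Of 12867 named genes outside the members, 45 had a correlation above 0.9 with the endothelial level over the 12 arrays, 16 with the leukocyte level and 8 with the erythroid level. Those nearest the endothelial level were Cd93 (0.984), Aplnr (0.975), Ptprb (0.971), Cd34 (0.970) and Robo4 (0.965). Nearest the erythroid level were Hemgn (0.985), Ncf4 (0.982), Hbb-bt (0.974), Car2 (0.968) and Rhd (0.949). Hbb-bt, an adult beta globin with near-identical copies, is uncertain for that reason, and it ranged 65.4-fold. Nearest the leukocyte level were Fcgr1 (0.982), Ly86 (0.951), Lcp1 (0.949), Trem2 (0.946) and Prrx1 (0.941). Prrx1, a homeobox gene of mesenchyme, differed from the others in the size of its movement, 0.70 over the 12 arrays against at least 2.54 for each of the others.

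Megakaryocyte genes, of another blood lineage, had another order of embryos. Their level was highest in mutant female 1 at 1.02 and lowest in control males 1 and 2 at -1.32 and -1.23. Its correlation was 0.24 with the endothelial, 0.20 with the erythroid and 0.14 with the leukocyte level. Without the 2 arrays farthest from the median of the endothelial, erythroid or leukocyte level, these were 0.14, 0.02 and -0.46. With the level of the mesonephric epithelium genes it was 0.74 (0.55 without the 2 arrays farthest from the megakaryocyte median). Control male 2, the highest embryo in leukocyte genes, was thus among the lowest in megakaryocyte genes.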

How the data were processed

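The deposited values were intensities: per the file headers, the processed signal of Agilent Feature Extraction 10.5.1.1, linear, with background subtracted and without scaling between arrays; raw median signal and local background intensities were deposited beside it. From 45018 spots per array, 43379 were not controls, and outlier spots (0.201%) were left out. Probes were named through the accession of the array and a RefSeq table of GRCm38.p6; 27479 of 41174 probes matched 18749 symbols. The log2 signal minus the 75th percentile was fitted in limma 3.58.1 (R 4.3.3) over all 12 arrays with 4 group means, pooled spread and Benjamini-Hochberg adjustment at 0.05 over 19178 features, of which 13264 were named genes. Slide contrasts added slide as a term, from the file headers. Where a group was dim on all its arrays, or some arrays were dim or saturated in a range over embryos, "at least" marks a bound, taken against the higher, per array, of its own signal and the lowest signal well above background. The number of arrays limits the precision.

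The members, lists and tests were chosen with earlier results of these data known. All members are named; other genes are named where called, or as the 5 nearest each class level. Genes named outside this rule were chosen after their values were seen: Ngfr, Cdh1 and those under other observations. Same-numbered embryos did not deviate together (median correlation -0.11 over 18 pairs, -0.53 to 0.43), so numbers were not taken as pairs. The fit was tested on simulated data. Alternatives were quantile normalization, normexp with an offset of 50, other filters on dim probes, the second probe of a gene, only the groups compared, array weights, array brightness, slide or replicate number as a block, and leaving out each array. Figures were drawn with matplotlib.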

Additional observations from a re-analysis of the deposited data

How the results depend on the processing

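No member passed limma's threshold in any of the 7 comparisons, under the reported settings or under any of the 23 alternatives that could be fitted (18 to 23 per comparison), among them leaving out each array, where the count was 0 throughout. The smallest adjusted p of a member over the alternatives was 0.0601 for the mutant effect in males and 0.0534 in females, both with array weights, which raised the called features from 90 to 2621 and from 68 to 5619. It was 0.118 and 0.112 for the sex difference in controls and mutants, 0.52 for the difference of the mutant effects, and 0.505 and 0.183 for the slide contrasts. With the replicate number as a block the count of called members stayed at 0, with smallest adjusted p-values of 0.45 in males and 0.532 in females, and the called features were 62 and 48. Class medians moved more. Leaving out 1 array gave -0.18 to 1.36 for the erythroid median in males and -0.56 to 1.43 in females; 0.16 to 0.90 and -0.68 to 0.12 for the endothelial median; and 0.10 to 0.92 and -0.46 to 0.58 for the leukocyte median. In males, the endothelial, erythroid and leukocyte medians (0.55, 0.41 and 0.44) were -0.10, -0.83 and -0.23 with slide as a fixed block, 0.15, -0.12 and 0.04 with it as a random block, 0.19, 0.04 and 0.02 with array weights, and 0.13, 0.41 and -0.07 with normexp; in females (-0.36, 0.12 and -0.06) the fixed block gave -0.01, 1.53 and 0.60. The fixed-block medians are those of slide 1 alone in males and slide 3 alone in females, so they are not a separate check. The cause of the shifts in the medians was not tested. Signal over background limits Gata1, Ptprc, Cx3cr1 and Lyz2, well above background on 5, 2, 3 and 0 arrays, and C1qa, Tek, Klf1, Pecam1, Tie1 and Mrc1, on 7 to 10.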

Other observations

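S100a8 and S100a9, from the list of other leukocyte genes and singled out after their values were seen, were well above background on 7 arrays and not on the other 5. S100a9, which encodes a subunit of calprotectin, stood at 2.26, -7.31 and 0.91 in control females 1 to 3, -7.42, -7.57 and 1.41 in mutant females, -6.49, 1.22 and -7.12 in male controls and -1.0, 0.26 and -0.08 in male mutants. Each group held at least 1 array well above background. Those 7 arrays lay from -1.0 to 2.26, and the signals of the other 5, which are background, from -7.57 to -6.49. Mutant female 1, next to the highest in erythroid members, was among the 5, and mutant male 1, low in erythroid members, among the 7. Mpo, the peroxidase of granulocyte precursors, also chosen after its values were seen, was well above background on 9 arrays and ranged over at least 3.64, with its highest level, -1.62, in mutant female 3.

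Pf4, platelet factor 4, ranged from 2.15 in control male 1 to 4.57 in mutant female 1, and Ppbp, another platelet chemokine, from -0.96 in control male 2 to 1.1. Both were chosen after their values were seen. Germ cell genes, which the sort would also leave behind, had a class level from -1.19 in control female 2 to 0.75 in mutant male 2, and a correlation of 0.18 with the endothelial, 0.32 with the erythroid and 0.44 with the leukocyte level over the 12 arrays (-0.31, 0.30 and 0.51 without the 2 farthest arrays).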
